A study of Mus musculus with 8 samples.

Results

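The genes described here are 10 members of the NRF2 and antioxidant system: Nfe2l2, which encodes the transcription factor NRF2, and the antioxidant genes Nqo1, Hmox1, Gclc, Gclm, Txnrd1, Srxn1, Gsr, Prdx1 and Cat. They were chosen by gene symbol, as every probe whose platform annotation carries one of those symbols. Of the 10 genes, 9 had a probe, through 14 of the 25697 probes on the array, and Gsr was not analysed here. The probe of Gclc was not above background on any array, which left 8 members among the 9340 genes tested.

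RNA from C57BL/6J mouse embryonic fibroblasts was hybridised to 8 one-colour Illumina bead arrays, 2 per group. The groups were staggerer cells after 12 h of doxorubicin, staggerer cells before treatment, wild-type cells after 12 h of doxorubicin and wild-type cells before treatment. Staggerer mice carry a mutation of Rora, which encodes the nuclear receptor RORα, and doxorubicin is an anthracycline that damages DNA and can form reactive oxygen species by redox cycling. The series asks how RORα alters gene expression with and without DNA damage. All cells were grown in DMEM with fetal bovine serum, and no source used here states the dose. The untreated cells were labelled as collected before treatment, so that doxorubicin and 12 h of further culture cannot be told apart. Whether paired arrays represent independent cultures or embryos is not stated in the labels. The p-values therefore cover the spread between these arrays, which may be technical, and genotype cannot be told apart from the particular cell isolates.

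NRF2 is normally held in the cytoplasm by KEAP1, which links it to a CUL3 ubiquitin ligase for degradation. Oxidants and electrophiles modify KEAP1, and the NRF2 that escapes pairs with a small MAF protein on antioxidant response elements, where BACH1 can compete with it. Its classical targets make and recycle glutathione, reduce thioredoxin and peroxiredoxins, detoxify quinones and break down haem. This control of NRF2 acts largely on the protein, which these arrays do not measure.

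Promoter sequence was examined for the members because several of them changed with doxorubicin. RefSeq promoter windows (GRCm38.p6, 250 bases before to 50 bases after the annotated start) were found for 7 members, in 9 windows. The core of the antioxidant response element, TGACNNNGC on either strand, was matched in 5 of those 7 genes and 5 of the 9 windows. It was matched in 14% of all 27025 genes and 12.4% of all 32851 windows. The members were chosen as NRF2 and antioxidant genes, so a larger share may follow from that choice, and it was not tested. The related AP-1 motif, TGANTCA on either strand, was matched in 2 of the 7, Srxn1 and Prdx1, against 8.97% of genes and 7.81% of windows. The stretches around most of these matches are shown, leaving out a second AP-1 motif of Prdx1 at position -237, because Srxn1 had the largest rise of the tested members in wild-type cells and Nfe2l2 is the regulator itself, while Gclm, Txnrd1 and Prdx1 hold the same core and did not pass the test in either genotype. Capitals mark the matched bases, and all stretches are given 5′ to 3′ on the gene's strand.
Srxn1, AP-1 motif, chr2:152105398-152105452, plus strand: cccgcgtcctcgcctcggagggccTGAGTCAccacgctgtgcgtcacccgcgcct
Srxn1, AP-1 motif, chr2:152105455-152105509, plus strand: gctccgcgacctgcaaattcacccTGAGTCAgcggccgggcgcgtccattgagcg
Srxn1, ARE core after the start, chr2:152105542-152105570, plus strand: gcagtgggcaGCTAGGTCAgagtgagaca
Nfe2l2, ARE core, chr2:75704871-75704913, minus strand: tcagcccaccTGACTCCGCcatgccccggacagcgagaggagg
Gclm, ARE core, chr3:122245399-122245455, plus strand: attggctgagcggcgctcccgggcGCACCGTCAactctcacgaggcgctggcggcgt
Txnrd1, ARE core in one of its windows, chr10:82859090-82859146, plus strand: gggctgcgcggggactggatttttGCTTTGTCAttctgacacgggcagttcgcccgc
Prdx1, overlapping ARE core and AP-1 motif, chr4:116685442-116685498, plus strand: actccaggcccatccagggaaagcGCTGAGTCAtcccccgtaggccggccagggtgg

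The matches lie at different distances from the start. The AP-1 motifs of Srxn1 begin at positions -102 and -45 relative to the start and its ARE core begins at +29. The ARE cores of Nfe2l2, Gclm and Prdx1 begin at -240, -134 and -133, and in Prdx1 the ARE core and an AP-1 motif share 7 bases. These are letter matches, not measured binding sites, and the windows of Nqo1 and Cat held neither motif.

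The arrays of treated staggerer cells differed from the rest in overall signal. They had 9576 and 9246 detected probes, against 10942 to 11572 on the other 6 arrays, where detection means a signal above nearly all control rows (detection p under 0.01). Over the tested probes, the median background-corrected log2 signal was 7.64 and 7.55 there and 8.61 to 9.11 elsewhere. Quantile normalization makes the distributions equal and so raises mid-range genes on these arrays. The deposited intensities are therefore printed with the normalized doxorubicin folds of each tested member, but for only some of the other genes. In bulk RNA, fewer cells of a type and less RNA per cell cannot be told apart. Of 11 fibroblast markers with a probe, 10 were detected on all 8 arrays. Of 8 macrophage markers, 3 were detected on all arrays and Ptprc on none, and their summed intensity was 2873 to 3094 in staggerer doxorubicin cells, 2694 to 2739 in staggerer untreated cells, 7118 to 7441 in wild-type doxorubicin cells and 7545 to 9158 in wild-type untreated cells. The sum of 6 erythroid markers, 5 of them undetected throughout, was 1052 to 1064 in staggerer doxorubicin cells, 1041 to 1053 in staggerer untreated cells, 1275 to 1283 in wild-type doxorubicin cells and 1036 to 1167 in wild-type untreated cells. The sum of 8 endothelial markers, 4 of them undetected throughout, was 2222 to 3266 over all arrays, and 7 epithelial markers summed to 1347 to 1439 in staggerer cells and 2283 to 3128 in wild-type cells.

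With doxorubicin, Srxn1 and Hmox1 rose in wild-type cells, while in staggerer cells Nqo1 rose and Hmox1 and Nfe2l2 fell. Of the 8 tested members in staggerer cells, 3 passed the limma test as higher and 2 as lower, where 31.9% and 33.2% of all genes did. In wild-type cells 3 were higher and 1 lower, where 26.4% and 30.5% of all genes were. The members' median log2 fold change was 0.39 in staggerer cells and 0.52 in wild-type cells, beside 0.03 and -0.09 over all genes tested. A call is an adjusted p under 0.05 after Benjamini-Hochberg adjustment over all 9340 genes. The shares called are so high over the whole array that the counts alone do not set these genes apart.

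**Figure D1:**
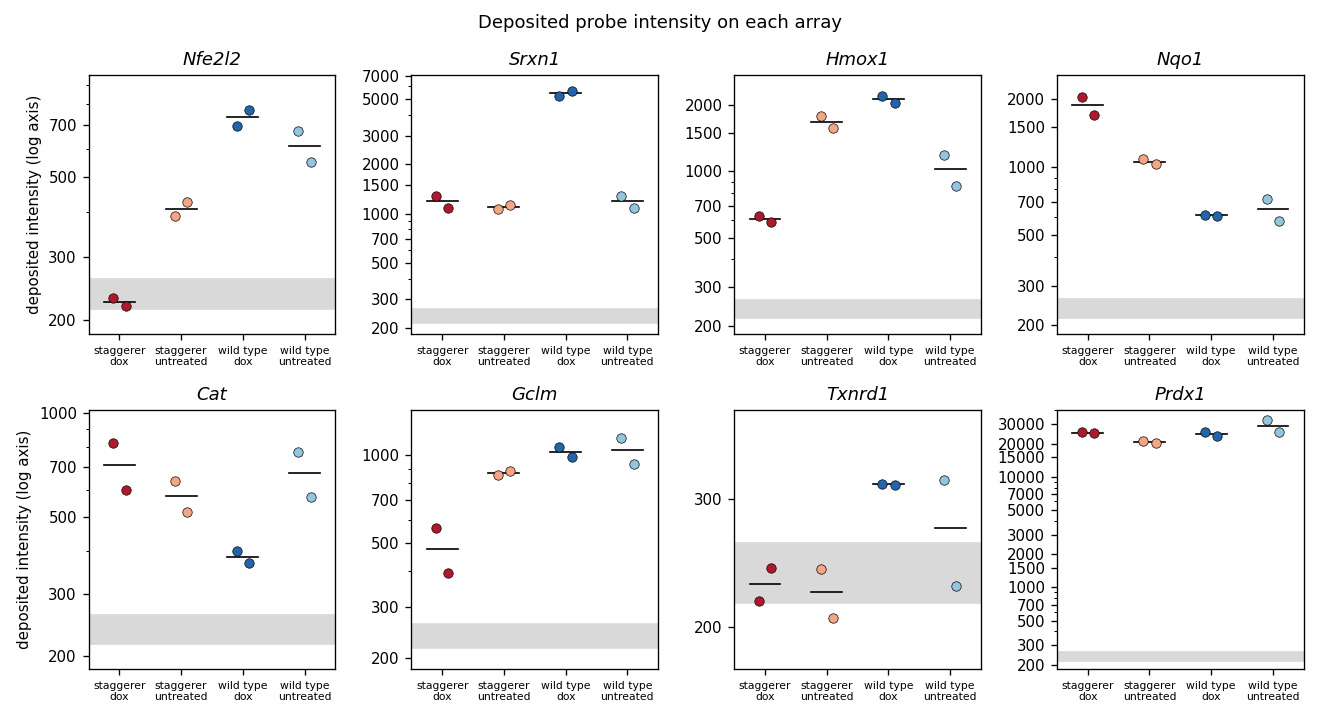
Deposited intensity (log axis, arbitrary units, a separate range per panel) of the probe representing each of the 8 tested members on each of the 8 arrays. Points are arrays, horizontal lines are group means, and the grey band spans the upper edge of the control-row signal on the arrays. The 2 wild-type doxorubicin arrays lie far above the others for Srxn1, and the 2 staggerer doxorubicin arrays are lowest for Nfe2l2, Hmox1 and Gclm and highest for Nqo1.

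Nfe2l2 moved in opposite directions in the 2 genotypes. Its probe had deposited intensities of 230.6 and 219.5 in staggerer doxorubicin cells and 391 and 425.1 in staggerer untreated cells. In wild-type cells it had 695.5 and 770 with doxorubicin and 669.8 and 551 without. The groups did not overlap in either genotype. Over all tested genes, 81.3% did not overlap in staggerer cells and 81.5% in wild-type cells after normalization. For Nfe2l2 the staggerer doxorubicin arrays were the lowest of all 8, with 1 of the 2 above the detection limit. The normalized log2 fold change was -1.08 (SE 0.14, adjusted p = 0.000367) in staggerer cells and 0.72 (SE 0.14, adjusted p = 0.00318) in wild-type cells. The wild-type rise was 0.40, with an adjusted p of 0.0872, when no normalization between arrays was applied, and it passed under the other 4 scalings run. The difference of the 2 effects was -1.79 (SE 0.19, adjusted p = 0.000326) and passed under all 5 scalings, at -2.29 to -1.06. Its other probe was not above background on any array, at intensities between 165 and 188.9.

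Among the genes that control NRF2, Keap1 was lower after doxorubicin in both genotypes. In the main analysis Cul3 and Bach1 were lower in staggerer cells and not called in wild-type cells. Keap1, the adaptor that binds NRF2, had intensities of 659 and 674 in staggerer doxorubicin cells and 1471 and 1345 in staggerer untreated cells. In wild-type cells it had 606 and 695 with doxorubicin and 2017 and 1945 without. It was lower on both treated arrays in each genotype. The log2 fold change was -0.42 (SE 0.16, adjusted p = 0.0472) in staggerer cells, where it passed under 4 of 5 scalings, and -1.62 (SE 0.16, adjusted p = 0.000117) in wild-type cells. The treated groups had nearly equal deposited intensities, so the normalized staggerer minus wild-type difference of 1.01 after doxorubicin comes with a range of 0.03 to 1.11 over the scalings.

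Cul3, the ligase scaffold, had 1267 and 1420 in staggerer doxorubicin cells against 7581 and 7185 in staggerer untreated cells. In wild-type cells it had 6873 and 6599 with doxorubicin against 10134 and 8664 without. The staggerer arrays thus fell far more steeply, by a log2 fold change of -2.11 (SE 0.12, adjusted p = 1.54e-05). In wild-type cells the value was -0.16, which did not pass in the main analysis. It ranged from -0.48 to -0.16 over the scalings and was called lower under 2 of 5. The difference of effects for Cul3 was -1.95 (SE 0.17, adjusted p = 0.000206), and it stayed between -2.13 and -1.41 over the scalings. Rbx1, the RING subunit of the same ligase, was lower in wild-type cells (-0.64, SE 0.12), at intensities of 9866 and 10436 with doxorubicin against 20294 and 16961 without.

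Bach1, the repressor that competes at antioxidant response elements, had intensities of 283 and 204 in staggerer doxorubicin cells and 889 and 819 in staggerer untreated cells. Wild-type cells had 1066 and 1169 with doxorubicin and 1536 and 1187 without. The staggerer log2 fold change was -2.37 (SE 0.46, adjusted p = 0.00275), and 1 of the 2 treated arrays was below the detection limit. In wild-type cells the fold change was 0.01, and the difference of effects was -2.37 (adjusted p = 0.0155).

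The small MAF gene Mafg, whose product pairs with NRF2, went the way of Nfe2l2. Intensities of Mafg were 508 and 538 in staggerer doxorubicin cells, 1472 and 1469 in staggerer untreated cells, 1997 and 2286 in wild-type doxorubicin cells and 1961 and 1735 in wild-type untreated cells. Its log2 fold change was -0.94 (SE 0.14) in staggerer cells and 0.57 (SE 0.14) in wild-type cells, and both passed in the main analysis, the wild-type rise under 4 of 5 scalings. Maff rose in both (1.23 and 0.55), again under 4 of 5 scalings in each, although its intensities, 238 to 328, were close to the control rows. Sqstm1, whose product p62 sequesters KEAP1, had a log2 fold change of -0.61 (SE 0.13) in staggerer cells, which ranged from -0.89 to 0.14 over the scalings, and no call in wild-type cells. Over the 10 tested genes that control NRF2, 1 was higher and 6 were lower in staggerer cells, and 3 were higher and 2 lower in wild-type cells, with Nfe2l1, a relative of NRF2, the third that rose (0.68, SE 0.11). Over the scalings 0 to 3 were higher and 4 to 7 lower in staggerer cells, and 0 to 3 higher and 2 to 3 lower in wild-type cells. For these and the lists that follow, the shares of all genes called higher and lower are 31.9% and 33.2% in staggerer cells and 26.4% and 30.5% in wild-type cells.

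Srxn1 encodes sulfiredoxin, which repairs overoxidized peroxiredoxins. It had intensities of 1285.9 and 1086 in staggerer doxorubicin cells and 1070.9 and 1136.8 in staggerer untreated cells. In wild-type cells it had 5240.2 and 5656.3 with doxorubicin against 1285.9 and 1087 without. The wild-type treated arrays stood clear of all 6 others, while the staggerer groups overlapped in deposited intensity. The wild-type log2 fold change was 2.90 (SE 0.12, adjusted p = 4.28e-06), with a range of 2.38 to 2.90 over the scalings. In staggerer cells it was 0.86 (SE 0.12, adjusted p = 0.000667) after quantile normalization, 0.27 (adjusted p = 0.136) after centring on the median of all probes and 0.11 (adjusted p = 0.635) without normalization between arrays. The difference of effects was -2.03 (SE 0.18, adjusted p = 0.000193) and passed under all 5 scalings, at -2.27 to -1.56.

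All 3 Srxn1 probes gave the same order of groups within the wild type. The second probe had 666.7 and 724.8 in staggerer doxorubicin cells, 766.1 and 785.3 in staggerer untreated cells, 3405.5 and 3420.7 in wild-type doxorubicin cells and 970.7 and 912.1 in wild-type untreated cells. The third had 280.6 and 284.1 in staggerer doxorubicin cells, 284.1 and 279.7 in staggerer untreated cells, 907.5 and 723.5 in wild-type doxorubicin cells and 375.8 and 268.7 in wild-type untreated cells. Neither showed a higher deposited intensity in treated staggerer cells beyond the untreated arrays, although after quantile normalization both were called higher there, at 0.71 (adjusted p = 0.00298) and 0.90 (adjusted p = 0.00725). Their log2 fold changes in wild-type cells were 2.53 and 2.38, and the differences of effects were -1.82 and -1.48.

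**Figure D2:**
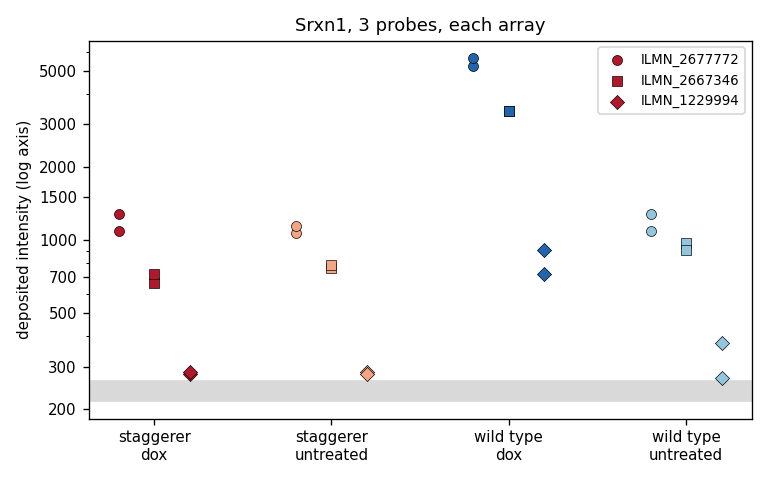
Deposited intensity (log axis, arbitrary units) of the 3 Srxn1 probes on each of the 8 arrays, by group, with the probe shown by the marker shape and the grey band spanning the upper edge of the control-row signal on the arrays. For each probe, both wild-type doxorubicin arrays lie above the other 6 arrays.

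Hmox1, which encodes the inducible haem oxygenase, also had opposite directions in the 2 genotypes. Its intensities were 628.8 and 592.1 in staggerer doxorubicin cells and 1780.2 and 1566.9 in staggerer untreated cells. In wild-type cells they were 2193.4 and 2045.8 with doxorubicin and 1183.3 and 862.7 without. No groups overlapped in deposited intensity, where treated staggerer cells had the lowest values. Most tested genes also did not overlap between compared groups after normalization. After normalization wild-type untreated cells were lowest (9.62 in staggerer doxorubicin cells and 9.23 in wild-type untreated cells, mean log2). Doxorubicin changed it by a log2 fold of -0.88 (SE 0.14, adjusted p = 0.000887) in staggerer cells and 1.57 (SE 0.14, adjusted p = 7.07e-05) in wild-type cells. The difference of -2.45 (SE 0.19, adjusted p = 0.000165) was the largest in size among the tested members, and it ranged from -2.96 to -2.11 over the scalings. Macrophages express Hmox1 strongly, and the macrophage marker sums given above were higher in wild-type than in staggerer cells and did not rise with doxorubicin in wild-type cells; their part in the Hmox1 values was not tested.

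Genes of haem and iron handling were called in both directions. Slc40a1, the iron exporter ferroportin, had 434 and 514 in staggerer doxorubicin cells, 491 and 461 in staggerer untreated cells, 2989 and 3288 in wild-type doxorubicin cells and 976 and 859 in wild-type untreated cells. Its wild-type log2 fold change was 2.44 (SE 0.17), and the staggerer value of 0.95 ranged from -0.04 to 0.99 over the scalings. Alas1, the first enzyme of haem synthesis, had 1862 and 2016 in staggerer doxorubicin cells, 3452 and 3690 in staggerer untreated cells, 9348 and 9225 in wild-type doxorubicin cells and 4111 and 3888 in wild-type untreated cells. It rose in wild-type cells (1.68, SE 0.13), and the staggerer value of -0.48 ranged from -0.94 to 0.08. Blvra, a biliverdin reductase acting downstream of haem oxygenase, was lower in both genotypes (-0.41 in staggerer cells, SE 0.14, under 4 of 5 scalings, and -1.18 in wild-type cells, SE 0.14). The other listed biliverdin reductase, Blvrb, was called higher in both (0.82 in staggerer cells, 4 of 5 scalings, and 0.49 in wild-type cells, 3 of 5). Fech, at intensities of 207 to 314, was lower in wild-type cells (-0.76, SE 0.13). Its staggerer value of 0.85 ranged from -0.05 to 0.97. Tfrc, the transferrin receptor, was higher in staggerer cells (1.46, SE 0.12). Of the 8 tested genes of this list, 4 were higher and 2 lower in each genotype, with a median of 0.49 in staggerer cells and 0.40 in wild-type cells. Over the scalings 1 to 5 were higher and 0 to 3 lower in staggerer cells, and 2 to 5 higher and 2 lower in wild-type cells. The erythroid marker Hba-a1, a globin gene, averaged 5.44 in staggerer doxorubicin cells, 5.02 in staggerer untreated cells, 7.92 in wild-type doxorubicin cells and 5.08 in wild-type untreated cells on the normalized log2 scale, and its part in these values was not tested.

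Nqo1, the NAD(P)H quinone oxidoreductase commonly used as a readout of NRF2, behaved unlike Srxn1 and Hmox1. Intensities were 2050.1 and 1704.4 in staggerer doxorubicin cells and 1082.3 and 1031.9 in staggerer untreated cells. Wild-type cells had 618.1 and 608.7 with doxorubicin and 723.4 and 580 without. Staggerer cells were above wild-type cells in both conditions, and the treated staggerer arrays were highest, while the wild-type groups overlapped. On the log2 scale the change was 1.52 (SE 0.12, adjusted p = 4.04e-05) in staggerer cells, with a range of 0.92 to 1.94 over the scalings. In wild-type cells it was 0.26 (95% interval -0.01 to 0.54, adjusted p = 0.0895). The difference of effects was 1.26 (SE 0.17, adjusted p = 0.000655). Its other probe was not above background on any array.

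Enzymes that act on quinones and carbonyls, and so on anthracyclines, were mixed. Cbr3, a carbonyl reductase, had 1203 and 1003 in staggerer doxorubicin cells, 2105 and 2009 in staggerer untreated cells, 5618 and 5007 in wild-type doxorubicin cells and 2766 and 1929 in wild-type untreated cells. Its log2 fold change was 1.70 (SE 0.14) in wild-type cells and -0.32 (-1.02 to 0.01 over the scalings, not called in the main analysis) in staggerer cells, and the difference was -2.02 (SE 0.20, adjusted p = 0.000263). Nqo2, the relative of Nqo1, was lower in wild-type cells (-0.57, SE 0.12), and its staggerer value of 0.79 ranged from -0.03 to 0.99 over the scalings. Of 5 tested genes of this list, 2 were higher and 0 lower in staggerer cells by limma (also 0 lower at an unadjusted p under 0.05), and 2 were higher and 1 lower in wild-type cells. Over the scalings 0 to 4 were higher and 0 to 1 lower in staggerer cells, and 1 to 2 were higher in wild-type cells.

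Catalase, which breaks down hydrogen peroxide, had intensities of 817.9 and 601.2 in staggerer doxorubicin cells and 634.9 and 518.1 in staggerer untreated cells. In wild-type cells Cat had 400.5 and 368.5 with doxorubicin and 770.2 and 574.4 without. The wild-type treated arrays were the lowest of the 8, and the staggerer groups overlapped. The log2 fold change was -0.78 (SE 0.20, adjusted p = 0.0112) in wild-type cells, and it lost its call without wild-type untreated replicate 1 (-0.66, adjusted p = 0.0752) or wild-type doxorubicin replicate 2 (-0.71, adjusted p = 0.0662). In staggerer cells the normalized value was 1.28 (SE 0.20, adjusted p = 0.000888), but 0.53 (adjusted p = 0.0721) after centring on the median of all probes and 0.37 (adjusted p = 0.208) without normalization between arrays. The difference of effects for Cat was 2.06 (SE 0.28, adjusted p = 0.000723) and passed under all 5 scalings.

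**Figure D3:**
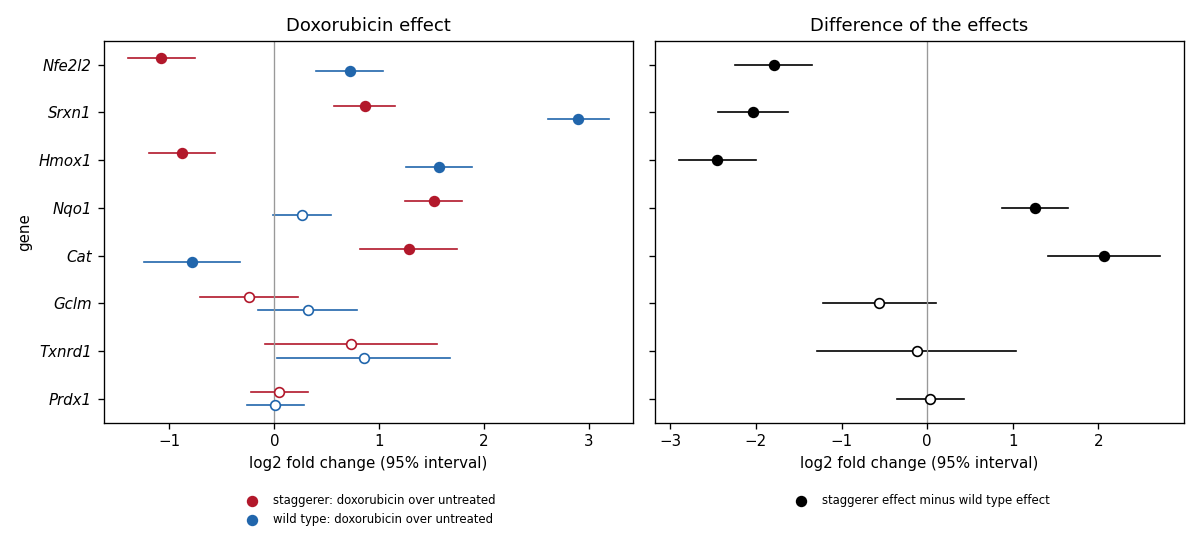
Normalized log2 fold change with its 95% interval for the 8 tested members: doxorubicin over untreated in staggerer cells (red) and wild-type cells (blue) on the left, and the staggerer effect minus the wild-type effect on the right. Filled points passed the limma test; the intervals for Gclm, Txnrd1 and Prdx1 include 0 in the right panel.

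Gclm, the modifier subunit of the enzyme that starts glutathione synthesis, had intensities of 559.3 and 393.7 in staggerer doxorubicin cells and 852.3 and 882.8 in staggerer untreated cells. It had 1072.5 and 987.4 in wild-type doxorubicin cells and 1150.5 and 930.1 in wild-type untreated cells. The treated staggerer arrays were the lowest of the 8. Log2 fold changes were -0.24 (95% interval -0.71 to 0.23) in staggerer cells and 0.32 (-0.15 to 0.79) in wild-type cells. Neither passed, but the staggerer value was -1.05 (adjusted p = 0.00347) after centring on the median of all probes and -1.21 (adjusted p = 0.000615) without normalization between arrays, and -0.56 (adjusted p = 0.009) without staggerer doxorubicin replicate 1. The catalytic subunit Gclc had intensities between 179.6 and 212.1, not above background.

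Among the other glutathione genes, Gpx3 and Gss rose in both genotypes, and the remaining calls were each made in 1 genotype. Gpx3, a secreted glutathione peroxidase, had 1074 and 802 in staggerer doxorubicin cells, 565 and 561 in staggerer untreated cells, 3553 and 3527 in wild-type doxorubicin cells and 939 and 859 in wild-type untreated cells. It rose by 1.76 (SE 0.14) in staggerer cells and 2.68 (SE 0.14) in wild-type cells on the log2 scale, and both passed under all 5 scalings. Gss, which completes glutathione synthesis, had 781 and 748 in staggerer doxorubicin cells, 605 and 605 in staggerer untreated cells, 1021 and 1092 in wild-type doxorubicin cells and 563 and 484 in wild-type untreated cells. Its log2 fold change was 1.33 (SE 0.11) in staggerer cells, where it passed under 4 of 5 scalings, and 1.68 (SE 0.11) in wild-type cells. Glrx5, a mitochondrial glutaredoxin, rose in wild-type cells (1.29, SE 0.13), and Gstk1, a glutathione transferase, was higher in staggerer cells (1.27, SE 0.12, 4 of 5 scalings). Of 15 tested genes, 7 were higher and 1 lower in staggerer cells, and 7 were higher and 0 lower in wild-type cells by limma (also 0 lower at an unadjusted p under 0.05). The staggerer count of higher genes ranged from 4 to 13 over the scalings, and the wild-type count from 4 to 9.

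Txnrd1, the cytosolic thioredoxin reductase, was near the detection limit. Its intensities were 216.6 and 240.7 in staggerer doxorubicin cells, 240.4 and 205.6 in staggerer untreated cells, 315.1 and 314.1 in wild-type doxorubicin cells and 319.3 and 227.4 in wild-type untreated cells. It was detected on 5 of 8 arrays, among them both wild-type doxorubicin arrays. The log2 fold change was 0.73 (95% interval -0.09 to 1.55) in staggerer cells and 0.85 (0.03 to 1.67, adjusted p = 0.0729) in wild-type cells. The staggerer value was called at 1.08 (adjusted p = 0.0172) when centred on the median of the tested probes. The wild-type value was called under some settings, such as an adjusted p of 0.0191 when the 4 wild-type arrays were fitted alone.

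Prdx1, an abundant peroxiredoxin, had intensities of 25606.4 and 24733.5 in staggerer doxorubicin cells and 20919.1 and 20262.9 in staggerer untreated cells. Wild-type cells had 25454.2 and 23330.2 with doxorubicin and 32495.3 and 25655.5 without. No array was near background, and the treated staggerer arrays were above the untreated ones, while treated wild-type arrays were below theirs. The log2 fold change was 0.05 (95% interval -0.23 to 0.32) in staggerer cells and 0.01 (-0.27 to 0.28) in wild-type cells. The staggerer value was 0.45 (adjusted p = 0.0149) after centring on the median of all probes and 1.32 (adjusted p = 3.07e-05) after centring on that of the tested probes. Its other probe was above background on the 2 staggerer doxorubicin arrays only, at 226.3 and 247.7, and passed the detection filter only through them. The log2 fold change of that probe was 1.66 in staggerer cells and -0.69, not called, in wild-type cells. It was tested only because it was high in treated staggerer cells, so the staggerer value is no test of a rise.

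Among the other thioredoxin and peroxiredoxin genes, 5 of 9 were higher and 1 lower in staggerer cells, and 4 were higher and 2 lower in wild-type cells. The higher count ranged from 2 to 7 in staggerer cells and from 2 to 5 in wild-type cells over the scalings. Txnip, which binds and inhibits thioredoxin, was the 1 that fell in staggerer cells, at 354 and 356 with doxorubicin against 1189 and 1236 without (log2 fold change -1.43, SE 0.12). Wild-type cells had 1214 and 1106 of Txnip with doxorubicin and 1739 and 1423 without, which was not called in the main analysis (-0.18). That value ranged from -0.48 to -0.16 over the scalings and was called lower under 2 of 5. Txn2, the mitochondrial thioredoxin, was higher in staggerer cells (1.61, SE 0.15), and Msrb1, a methionine sulfoxide reductase, rose in wild-type cells (1.48, SE 0.17), at 2353 and 2028 against 1191 and 995. Its mitochondrial relative Msrb2 was lower in wild-type cells (-0.79, SE 0.16). In staggerer cells Msrb1 and Msrb2 were called higher in the main analysis (0.85 and 0.63), each under 3 of 5 scalings. Over the scalings these values ranged from 0.13 to 1.15 and from -0.29 to 0.73. The difference of effects for Msrb2 was 1.42 (SE 0.22, limma adjusted p = 0.00135).

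Among superoxide genes no call went down in the main analysis. Of 6 tested, 4 were higher in staggerer cells and 3 in wild-type cells, with 0 lower in either by limma in the main analysis (also 0 at an unadjusted p under 0.05), and 1 lower in staggerer cells under at least 1 other scaling. The higher count ranged from 2 to 6 in staggerer cells and from 1 to 3 in wild-type cells over the scalings. Ccs, the copper chaperone of superoxide dismutase, had 8967 and 8553 in wild-type doxorubicin cells against 4609 and 3972 in wild-type untreated cells (log2 fold change 1.48, SE 0.16). In staggerer cells Ccs had 3151 and 2451 with doxorubicin and 4359 and 3420 without, and its difference of effects was -1.61 (SE 0.22, adjusted p = 0.000788). Sod3, the extracellular superoxide dismutase, was higher in staggerer cells with doxorubicin (1.26, SE 0.14, 4 of 5 scalings), at 1183 and 878 against 770 and 804.

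Counts among the other classical NRF2 targets depended on the scaling. Of 14 tested, 11 were higher and 1 lower in staggerer cells (higher in 6 to 13 over the scalings), and 5 were higher and 1 lower in wild-type cells (higher in 2 to 5). The difference of effects was called higher in staggerer cells for 6 of the 14 and lower for 0 by limma. Ephx1 was lower at an unadjusted limma p of 0.031. Of all genes 26.6% were called higher and 32.5% lower. Over the scalings 5 to 11 of the 14 were higher and 0 to 1 lower. Me1, the NADPH-producing malic enzyme, had 2221 and 2532 in staggerer doxorubicin cells, 1199 and 1218 in staggerer untreated cells, 792 and 1043 in wild-type doxorubicin cells and 2187 and 1225 in wild-type untreated cells. Its difference of effects was 2.29 (SE 0.36, adjusted p = 0.00146), with a staggerer log2 fold change of 1.60. Akr1b8, an aldo-keto reductase, rose in both genotypes (1.11 in staggerer cells, under 4 of 5 scalings, and 1.23 in wild-type cells), at 2155 and 2219 in wild-type doxorubicin cells against 1306 and 1219 in wild-type untreated cells. Gstm1, a glutathione transferase, was higher in staggerer cells (1.32, SE 0.12). It was also called higher in wild-type cells (0.35, limma adjusted p = 0.0425), under 3 of 5 scalings. Slc7a11, the cystine transporter that feeds glutathione synthesis, was the 1 that fell in each genotype, and it was chosen after its values were seen. Its intensities were 193 and 168 in staggerer doxorubicin cells, 244 and 210 in staggerer untreated cells, 229 and 225 in wild-type doxorubicin cells and 359 and 317 in wild-type untreated cells, and the treated staggerer arrays were not well above background.

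**Figure D4:**
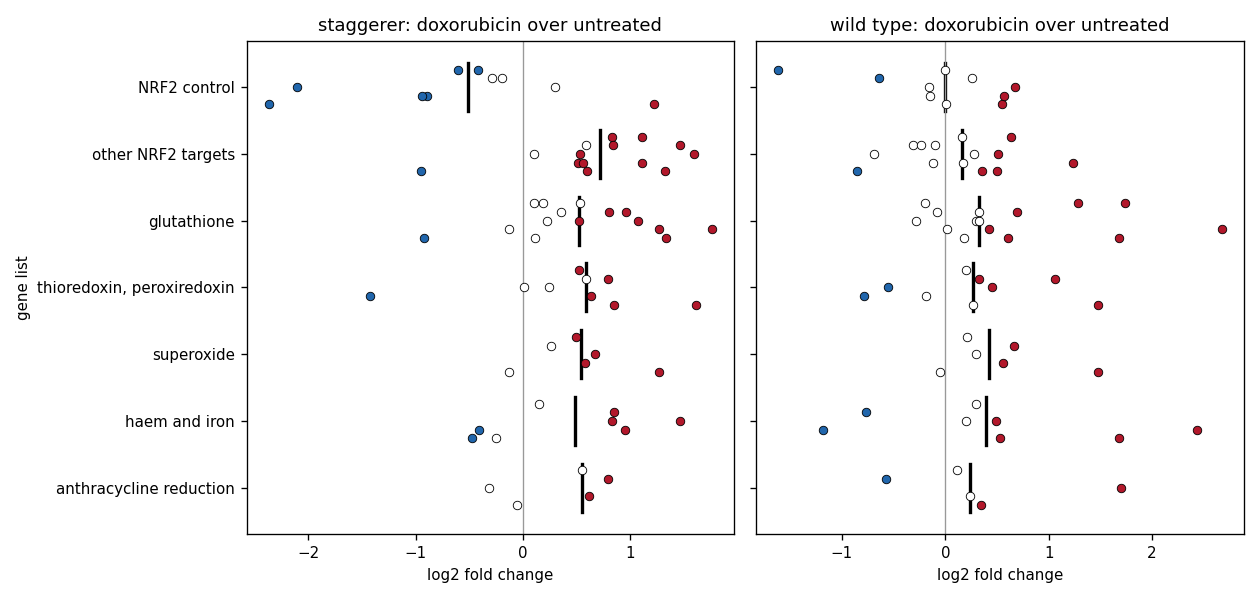
Normalized log2 fold change with doxorubicin of the tested genes in 7 lists of NRF2-related function, in staggerer cells (left) and wild-type cells (right). Each point is a gene (red called higher, blue called lower, white not called), spread vertically for legibility, and black bars are list medians, which are -0.51 in staggerer cells and 0.00 in wild-type cells for the NRF2 control list.

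Taking all 7 lists, 34 of 67 tested genes were higher and 11 lower in staggerer cells, and 28 were higher and 8 lower in wild-type cells, beside 31.9%, 33.2%, 26.4% and 30.5% of all genes. Over the scalings 15 to 51 were higher and 6 to 17 lower in staggerer cells, and 12 to 31 higher and 8 to 14 lower in wild-type cells. Medians were 0.53 in staggerer cells and 0.27 in wild-type cells, beside 0.03 and -0.09 over all genes. The 2 comparisons use different arrays.

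Before treatment, staggerer cells already had more Nqo1 and Hmox1 than wild-type cells. The log2 difference was 1.30 (SE 0.12, adjusted p = 0.000488) for Nqo1 and 1.27 (SE 0.14, adjusted p = 0.00111) for Hmox1. Each was higher in both staggerer arrays than in both wild-type arrays. Over all tested genes, 61.9% did not overlap between these groups after normalization. Of the 8 members 2 were higher and 0 lower by limma (Nfe2l2 was lower at an unadjusted limma p of 0.0176), where 6.69% and 6.26% of all genes were. Nfe2l2 itself was lower by deposited intensity, and its normalized difference was -0.42 (95% interval -0.74 to -0.10, adjusted p = 0.0946). That difference was called at -0.56 (adjusted p = 0.04) and -0.79 (adjusted p = 0.0108) after centring on the median of all probes and without normalization. The remaining members had differences between -0.21 and 0.27.

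Of the 67 listed genes tested, 5 were higher and 6 lower in staggerer cells before treatment, which is near the shares over all genes (6.69% and 6.26%). Sod3 had 770 and 804 in staggerer cells against 459 and 416 in wild-type cells (log2 difference 1.58, SE 0.14, adjusted p = 0.000539). The glutathione transferase Gsta4, Gss and Ephx1 were also called higher (0.84, 0.71 and 0.43), under 4, 4 and 3 of 5 scalings. Tfrc and Slc40a1 were lower in staggerer cells (-0.92 and -0.86), as were the glutathione transferases Gsto1 and Gstk1 (-0.81 and -0.77). Gsta3, a glutathione transferase, was not above background in staggerer cells, at 187 and 166, against 439 and 316 in wild-type cells, and was at least 2.11-fold lower (adjusted p = 0.00374), where the bound sets the wild-type mean against the lowest detected signal. Macrophage and epithelial marker sums differed between the genotypes as given above, and their part in these values was not tested.

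After doxorubicin the genotypes differed at more members. Nqo1 and Cat were higher in staggerer cells, by 2.56 (SE 0.12, adjusted p = 7.83e-06) and 2.17 (SE 0.20, adjusted p = 4.79e-05) on the log2 scale. Nfe2l2, Srxn1 and Hmox1 were lower, with log2 differences of -2.21 (adjusted p = 1.24e-05), -1.77 (adjusted p = 1.72e-05) and -1.18 (adjusted p = 0.000144). Thus 2 members were higher and 3 lower, where 32.6% and 39.9% of all genes were. These 5 genes are also those with a called difference of doxorubicin effects (2 higher and 3 lower in staggerer cells), where 26.6% and 32.5% of all genes were called. Gclm and Txnrd1 were called lower as well, at -1.23 and -0.93, after centring on the median of all probes. Without normalization between arrays they were called at -1.51 and -1.2. Gclm, not called at -0.49 in the main analysis, was also called in other settings, such as quantile normalization without background correction (-0.39). The comparisons of the 4 groups share arrays, so their calls are not independent.

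**Figure D5:**
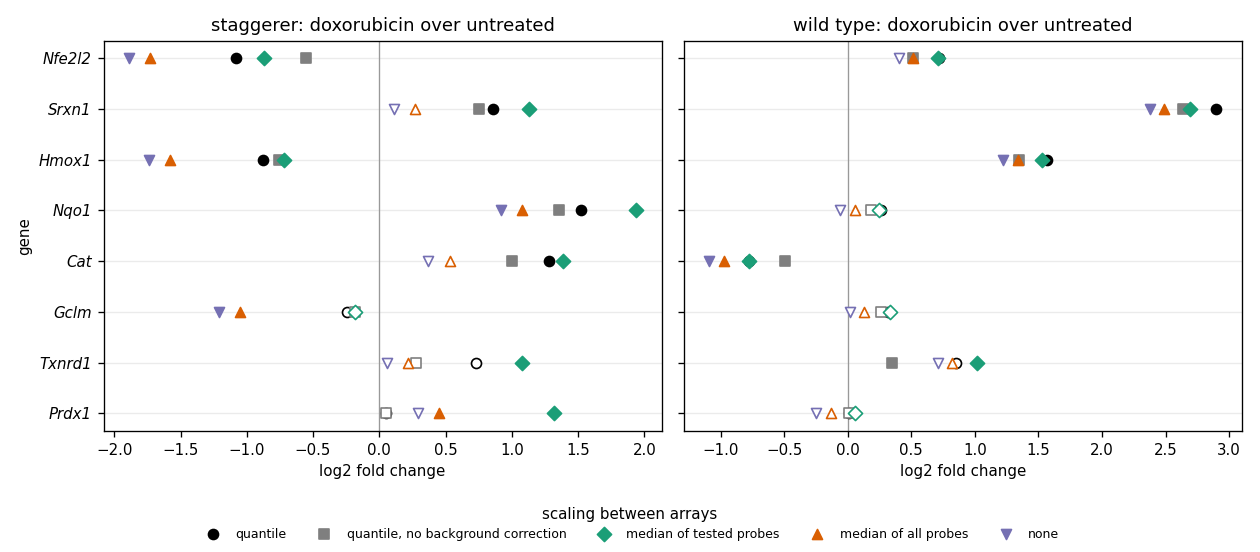
Log2 fold change with doxorubicin of the 8 tested members under 5 ways of scaling the arrays, in staggerer cells (left) and wild-type cells (right); filled markers passed the limma test. In staggerer cells the values of Srxn1, Cat, Gclm, Txnrd1 and Prdx1 cross the call threshold with the scaling, while Nfe2l2 and Hmox1 stay below 0 and Nqo1 above it.

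Genes with the pattern closest to a member over the 4 group means were taken among named genes detected on all 8 arrays, by the Euclidean distance of centred log2 means. For Nfe2l2 the nearest of 6003 were Tnfaip2 (distance 0.07), Khdc4 (0.14), Bcar1 (0.15), Bcl7a (0.16) and Hoxb5 (0.19). Tnfaip2, for example, averaged 9.45 in staggerer doxorubicin cells, 10.51 in staggerer untreated cells, 11.66 in wild-type doxorubicin cells and 10.85 in wild-type untreated cells on the normalized log2 scale. Nqo1 lay closest to Mme (0.08), Aplp1 (0.20), Dysf (0.23), Cpq (0.27) and Chil1 (0.27) of 6002 genes. Hmox1 had no such close neighbour, its nearest being Pdp1 (0.33), Lactb (0.36), Chst15 (0.37), Rap1gap2 (0.40) and Fas (0.41).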

How the data were processed

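The authors deposited linear bead intensity values for 25697 probes and 1124 control rows, and a table of normalized log2 values. Tested against the files, the deposited log2 table equals quantile normalization of log2 intensity with no background correction (largest difference 5.09e-09), and the log2 series matrix deposited by the authors equals that table. The scanner software is not given in the sources used here. Control rows carry no type and were taken as negative controls after leaving out 10 bright ones. Background was corrected by limma's nec (offset 16, limma 3.58.1 in R 4.3.3), then arrays were quantile normalized and log2 transformed. Probes with a detection p (the fraction of control rows reaching the probe's signal) under 0.01 on at least 2 arrays were tested: 12362 probes, 9340 genes or unnamed entries (715), each by its brightest probe. The number of arrays limits the precision.

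One linear model (lmFit, eBayes) held a mean for each of the 4 groups over all 8 arrays, sharing 1 estimate of the spread, and was tested on simulated data. Tests are two-sided. Of all probes, 23978 had 1 symbol, 0 had several and 1719 had none. Symbols come from the platform annotation, updated by Entrez identifier for 23962 probes. RefSeq GRCm38.p6 gave names and promoters.

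The members, pathway lists and marker lists were chosen with earlier results of these data known. Named genes are all members, Keap1, Bach1, Mafg and Sqstm1, up to 3 called genes per list and comparison with the smallest p, and the 5 nearest genes of Nfe2l2, Hmox1 and Nqo1; others are marked. The 5 scalings are quantile with and without background correction, median centring over all probes, none, and median centring over the tested probes, which was chosen after seeing the data. Other alternatives covered the offset, the detection filter, the probe rule, the variance model, the replicate block, the arrays fitted and leaving out each array.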

Additional observations from a re-analysis of the deposited data

Results flagged for a closer look

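For 5 members the doxorubicin effect differed between the genotypes by the test of the difference itself (limma, staggerer effect minus wild-type effect, log2). Of these 2 were higher and 3 lower, where 26.6% and 32.5% of all genes were, so the count alone does not set the members apart. The difference was -2.45 for Hmox1, -2.03 for Srxn1, -1.79 for Nfe2l2, 1.26 for Nqo1 and 2.06 for Cat. All 5 stayed called under each of the 5 scalings and without each of the 8 arrays in turn. Both staggerer doxorubicin arrays had fewer detected probes than the other 6, and the part of that in these differences was not tested beyond the scalings.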

How the results depend on the processing

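Over the alternatives run for the 8 members, 776 values kept their side of the threshold, 37 gained a call, 7 lost one and 2 reversed direction with a call. Some of the 776 changed sign without a call in either fit. Nqo1 with doxorubicin in wild-type cells, for example, was 0.26 and became -0.06 without normalization between arrays. The reversed values are those of Prdx1 in staggerer against wild-type cells after doxorubicin, 1.12 when centred on the tested probes and 0.91 as a mean of its probes, against -0.18. The mean includes the probe that was above background in staggerer doxorubicin cells only. The count of members higher with doxorubicin in staggerer cells was 3, but 1 without normalization between arrays and 5 when centred on the tested probes. The count lower there was 2, and 1 when detection on all 8 arrays was asked for, since Nfe2l2 was then not tested. Gclm was called lower there as well after median centring (-1.05) and without normalization between arrays (-1.21). In staggerer against wild-type cells, members lower before treatment numbered 0, and 1 after median centring and without normalization. After doxorubicin they numbered 3, and 5 after median centring and without normalization. Gclm was also called lower then in other settings, such as quantile normalization without background correction. Leaving out 1 array at a time (the lone array is assumed to vary like the other groups) gave 3 to 5 members higher with doxorubicin in wild-type cells, with 5 (Gclm and Txnrd1 added) without either staggerer doxorubicin array, and 0 to 1 lower, with 0 without wild-type untreated replicate 1 or wild-type doxorubicin replicate 2. Fitting only the 4 arrays compared could not be run for the difference of effects.

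Scaling moved the median of all genes with doxorubicin in staggerer cells from 0.03 to -0.40 (median centring), -0.56 (none) and 0.46 (tested probes), and in wild-type cells from -0.09 to -0.24, -0.35 and -0.04. The share of higher among called genes was 49%, 27.4%, 16.7% and 66.6% in staggerer cells and 46.4%, 36.9%, 30.5% and 48.9% in wild-type cells.

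Replicate numbers share only a number: replicate differences correlated at -0.03 to 0.03 between groups. With replicate number as a block, the members higher and lower with doxorubicin stayed 3 and 2 in staggerer cells and 3 and 1 in wild-type cells, and 2923 and 3070 of all genes were called in staggerer cells, against 2977 and 3099 without the block.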
